A study of Capra hircus with 6 samples.

Results

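The ubiquitin C-terminal hydrolase (UCH) family and the ubiquitin fusion gene RPS27A were followed in the goat line mGSCs-I-SB. Its labels call the cells spermatogonial stem cells, which renew themselves in the testis and feed sperm production. The members were taken by symbol: UCHL1, UCHL3, UCHL5, BAP1 and RPS27A, 5 of the 16599 genes that carried values, and all 5 entered the tests. The 6 libraries came from 3 lines, each with 2 libraries: shCON, labelled wild type with a control short hairpin RNA; shUCHL1, with UCHL1 knocked down; and shHSPA8, with HSPA8, the constitutive HSP70 chaperone of the cytosol, knocked down. All lines grew in the same serum-containing medium. The labels give neither the number or sequence of the hairpins, nor the vector, nor the time after transduction, nor whether a line is 1 clone, and there is no line without a hairpin. The libraries of a line are not said to come from separate cultures, so the p-values rest on a spread between libraries that may be technical.

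Ubiquitin is a small protein that cells attach to other proteins, and deubiquitinases take it off again. Ubiquitin is made as part of larger precursors and must be cut free: UBB encodes a head-to-tail chain, and RPS27A encodes ubiquitin joined to a ribosomal protein. UCH enzymes are cysteine proteases that cut behind the C-terminus of ubiquitin. UCHL1 is a very abundant member of neurons and of undifferentiated spermatogonia, where it is used as a marker. UCHL3 is its closest relative and also acts on the ubiquitin-like protein NEDD8, UCHL5 works at the regulatory particle of the proteasome and in the INO80 chromatin remodelling complex, and BAP1 removes ubiquitin from histone H2A in the nucleus. The question put to the data was whether transcripts of the relatives or of ubiquitin precursor genes were higher where UCHL1 was low.

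Each library held between 15710529 and 16417262 counts, and 12665 genes passed the low-count filter. Levels are CPM, counts set relative to a library total that was scaled with TMM factors, and a gene is called changed when its adjusted p is under 0.05 in edgeR's quasi-likelihood test over all 12665 genes. By that rule 15.7% of genes were called in shUCHL1 against shCON, 14.7% in shHSPA8 against shCON and 14.6% in shUCHL1 against shHSPA8. The defining germ cell markers were at or near 0: DDX4 lay between 0.428 and 1.95 CPM and KIT at no more than 0.0647 CPM, and 10 of the 19 spermatogonial markers were not analysed here, among them DAZL, ZBTB16, NANOS2 and SALL4. Summed over the 9 markers with values, the list lay at 254 CPM in both shCON libraries, from 146 to 148 in shUCHL1 and from 272 to 281 in shHSPA8. Most of it came from THY1 and ITGA6, which other cells also express. The sum thus follows these genes and not the list as a whole. Among the 7 markers tested, 2 rose and 1 fell in shUCHL1 against shCON, and 1 rose and 0 fell in shHSPA8. ID4 lay between 1.96 and 3.31 CPM in shCON, 5.8 and 6.36 in shUCHL1, and 8.79 and 10.2 in shHSPA8. THY1 went the other way in shUCHL1, lying between 61.5 and 65.8 CPM there, against 140 to 169 in shCON and 135 to 148 in shHSPA8. DESeq2 and both limma fits called THY1 lower in shUCHL1 than in shCON. GFRA1 was lower there as well but near the floor, at no more than 0.183 CPM against 0.551 to 1.08 in shCON. Markers of myoid cells and fibroblasts (10 of 10 with values) summed to between 17445 and 23287 CPM over all libraries, most of it collagen I. In shUCHL1 against shCON 1 of these 10 rose and 4 fell: ACTA2, a smooth muscle actin, lay between 534 and 567 CPM in shUCHL1, against 1476 to 1805 in shCON and 1150 to 1324 in shHSPA8, and TAGLN, DES and CNN1 fell with it. The one that rose was DCN, a matrix proteoglycan of fibroblasts, which lay between 907 and 947 CPM in shUCHL1, against 434 to 449 in shCON and 802 to 844 in shHSPA8. In shHSPA8 against shCON 3 of the 10 rose and 0 fell by edgeR. Leukocyte markers (7 of 7 with values) summed to 497 to 502 CPM in shCON, 174 to 188 in shUCHL1 and 298 to 302 in shHSPA8. Most of it came from LCP1, with PTPRC at no more than 0.190 CPM. CD14 went the other way, from 34.6 to 37.3 CPM in shCON to between 44.5 and 50.5 in shUCHL1 and between 55.8 and 61.2 in shHSPA8. Of the 3 leukocyte markers tested, 0 rose and 1 fell in shUCHL1 against shCON, and 1 rose and 1 fell in shHSPA8. Sertoli cell markers (10 of 12 with values) summed to 261 to 294, 231 to 234 and 186 to 232 CPM. Of the 7 tested, 1 rose and 2 fell in shUCHL1 against shCON, and 0 rose and 2 fell in shHSPA8. SOX9 lay between 67.6 and 76.2 CPM in shCON and between 26.1 and 33.2 in shHSPA8, and GATA4 between 94.6 and 112 and between 51.6 and 59.4. Endothelial markers (6 of 7) summed to 33.5 to 34.7, 31.2 to 31.5 and 50.8 CPM in both shHSPA8 libraries, most of it from ERG. Of the 5 tested, 1 rose and 0 fell in shUCHL1, and 2 rose and 0 fell in shHSPA8. The part of these shifts in the values of the members was not tested. In bulk libraries fewer cells of a type and less RNA per cell cannot be told apart.

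UCHL1 (gene ID 102178714) checks the labels. It stood at 405 and 451 CPM in shCON, at 94.3 and 97.7 CPM in shUCHL1 and at 386 and 334 CPM in shHSPA8. Both shUCHL1 libraries lay far below the other 4, and the shHSPA8 libraries lay below shCON without overlap. The shUCHL1 libraries held 22.0% and 22.8% of the shCON mean, from 1544 and 1629 counts, so the transcript was reduced but not lost. The 4.46-fold fall of UCHL1 (log2 fold change -2.16, 95% interval -2.41 to -1.91) was called under every alternative tried, with a log2 fold change of -2.26 to -2.08. In shHSPA8 the libraries held 90.1% and 78.0% of the shCON mean of UCHL1. That difference (-0.25, interval -0.49 to -0.01) did not pass the test (edgeR adjusted p = 0.151). It did pass after a correction for transcript length (-0.34, edgeR adjusted p = 0.00896). The other target, HSPA8, stood at 4016 and 4112 CPM in shCON, 5252 and 5345 CPM in shUCHL1, and 2631 and 2528 CPM in shHSPA8. HSPA8 fell to 63.5% of shCON in shHSPA8 (edgeR adjusted p = 0.00126) and rose 1.30-fold in shUCHL1 (0.38, SE 0.07, edgeR adjusted p = 0.0129, and up to 0.175 without a shUCHL1 library).

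**Figure D1:**
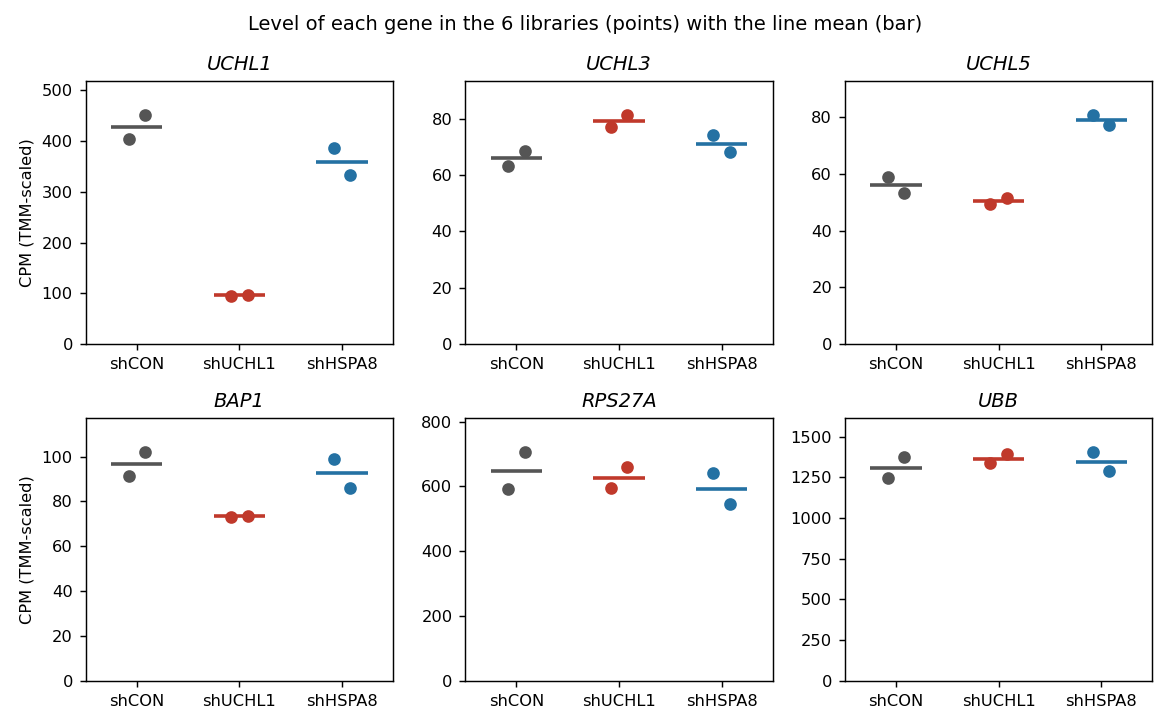
TMM-scaled CPM (vertical axes, each from 0) of the 5 members and the ubiquitin precursor gene UBB in each line. Points are libraries and bars the mean of 2; UCHL1 drops to 94.3 and 97.7 CPM in shUCHL1, UCHL5 is highest in shHSPA8 at 80.7 and 77.3 CPM, and RPS27A overlaps in all 3 lines.

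UCHL3 (gene ID 102182142), the closest relative of UCHL1, was somewhat higher in shUCHL1 but did not pass the test. It stood at 63.3 and 68.6 CPM in shCON, 77.2 and 81.2 CPM in shUCHL1, and 74.2 and 68.1 CPM in shHSPA8. Both shUCHL1 libraries lay above all other libraries, while shCON and shHSPA8 overlapped. Complete separation of this kind is common here: 29.5% of all tested genes were higher in both shUCHL1 libraries than in both shCON libraries. The ratio to shCON was 1.20 (log2 fold change 0.26, SE 0.10, edgeR adjusted p = 0.119). Its 95% interval, taken for this gene alone, ran from 1.02 to 1.41, so a rise above 1.41-fold lies outside it. After the length correction the same difference was called (0.28, edgeR adjusted p = 0.0355); over all alternatives the adjusted p ran from 0.0355 to 0.562 and the log2 fold change from 0.18 to 0.34. Against shHSPA8 the log2 fold change was 0.16 (SE 0.10, edgeR adjusted p = 0.326), and that of shHSPA8 against shCON was 0.11 (SE 0.10, edgeR adjusted p = 0.515).

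UCHL5 (gene ID 102191821), the proteasome-bound member, was the only UCH gene called in shHSPA8. It stood at 58.8 and 53.4 CPM in shCON, 49.4 and 51.6 CPM in shUCHL1, and 80.7 and 77.3 CPM in shHSPA8. Both shHSPA8 libraries lay above the other 4, and both shUCHL1 libraries lay just below shCON. UCHL5 rose 1.41-fold in shHSPA8 (log2 fold change 0.49, interval 0.27 to 0.72, edgeR adjusted p = 0.0151). The call was lost without either shHSPA8 library or either shUCHL1 library (edgeR adjusted p from 0.0626 to 0.0928), with 2 lines alone in the fit (0.0612) and with the replicate number as a block (0.055), while the log2 fold change stayed between 0.42 and 0.55 over all alternatives. In shUCHL1 its log2 fold change against shCON was -0.15 (interval -0.38 to 0.08, edgeR adjusted p = 0.358). Compared directly, UCHL5 was 1.56-fold lower in shUCHL1 than in shHSPA8 (-0.64, SE 0.10, edgeR adjusted p = 0.0068). That call was lost without either shUCHL1 library (edgeR adjusted p = 0.106 and 0.0801) or shHSPA8 replicate 1 (0.0509).

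BAP1 (gene ID 102183466), the nuclear member, was called lower in shUCHL1 by a narrow margin. It stood at 91.2 and 102 CPM in shCON, 73.0 and 73.7 CPM in shUCHL1, and 99.1 and 85.9 CPM in shHSPA8. Both shUCHL1 libraries lay below the other 4, and shCON and shHSPA8 overlapped. BAP1 fell 1.32-fold in shUCHL1 (log2 fold change -0.40, interval -0.65 to -0.14, edgeR adjusted p = 0.0493). Of 15 alternatives 4 kept the call, and leaving out any 1 library other than shCON replicate 1 ended it (edgeR adjusted p from 0.0579 to 0.29). The replicate block also ended it (0.124). Its direction was the same in all 15. Between shUCHL1 and shHSPA8 the log2 fold change was -0.33 (interval -0.59 to -0.08, edgeR adjusted p = 0.0839), and shHSPA8 differed from shCON by -0.06 (interval -0.32 to 0.19, edgeR adjusted p = 0.75).

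**Figure D2:**
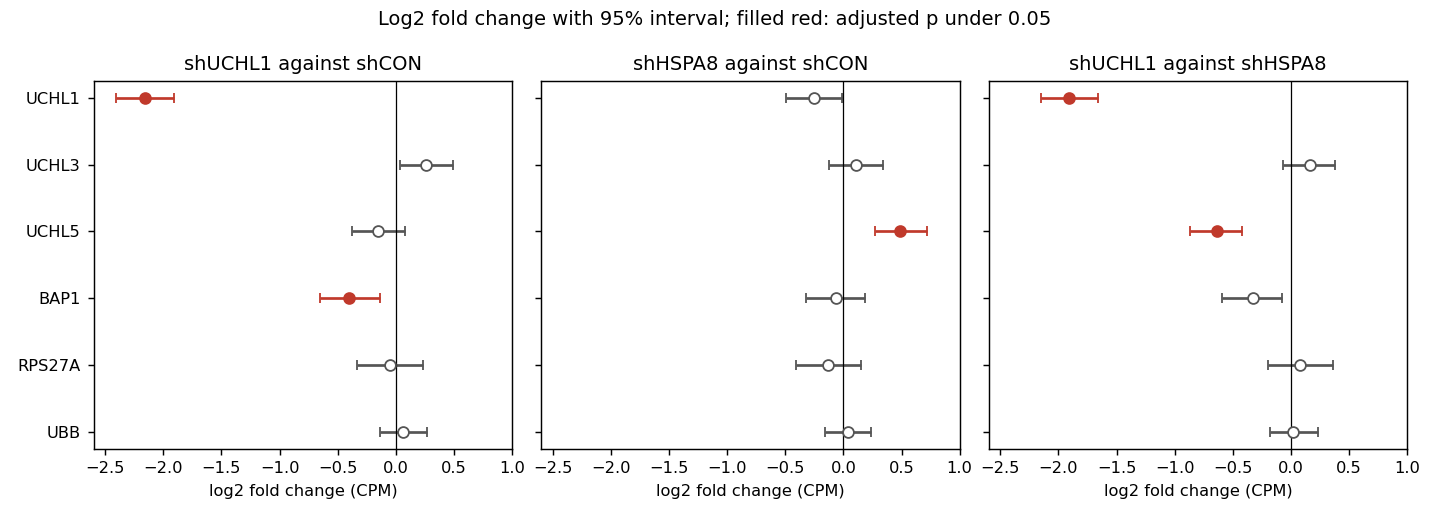
Log2 fold change (horizontal axis) of each gene with its 95% interval in the 3 comparisons; filled red points passed an adjusted p of 0.05. UCHL1 at -2.16 lies apart in shUCHL1, and every interval of UBB and RPS27A spans 0.

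Levels of different genes were compared per transcript length, with the authors' FPKM values. In shCON, UCHL1 stood at 488 and 534 FPKM, UCHL3 at 99.5 and 105, UCHL5 at 34.5 and 31.4 and BAP1 at 27.0 and 30.5. UCHL5 and BAP1 lay within a few FPKM of each other but did not overlap, and the other steps exceeded the spread many times. In shUCHL1, UCHL1 at 118 and 122 FPKM fell below UCHL3 at 125 and 132 FPKM, so UCHL3 became the highest of the family there. Averaged over the 6 libraries, UCHL1 ranked 235 of 12665 tested genes by FPKM, UCHL3 819, UCHL5 2674 and BAP1 3596.

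The family's total follows UCHL1. UCHL1 made up 75.2% and 76.2% of the summed FPKM of the 4 genes in shCON, 70.6% and 69.3% in shHSPA8 and 39.7% and 39.5% in shUCHL1. The sum itself was 649 and 701 FPKM in shCON, 656 and 572 in shHSPA8 and 296 and 309 in shUCHL1. Between the means of shCON and shUCHL1, UCHL1 was lower by 391 FPKM (511 ± 32.9 against 120 ± 3.34, SD, n = 2). UCHL3, UCHL5 and BAP1 together were higher by 18.8 FPKM (164 ± 4.05 against 183 ± 6.13, SD, n = 2), a difference that was 10.6 FPKM when the levels were rescaled with TMM factors. Of these genes only UCHL3 had a higher mean in shUCHL1, 128 against 102 FPKM. The mean of BAP1 was lower, 22.9 against 28.7 FPKM, and that of UCHL5 was 31.4 against 33, with libraries that overlapped. In shHSPA8 the same 3 genes together stood 20.3 FPKM above shCON (184 ± 12.3, SD, n = 2), or 11.6 FPKM without shHSPA8 replicate 1 and 29.0 FPKM without replicate 2. There the mean of UCHL5 was 46.1 FPKM against 33 in shCON and that of UCHL3 111 against 102, while BAP1 had 27.1 against 28.7. The sums were not tested.

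**Figure D3:**
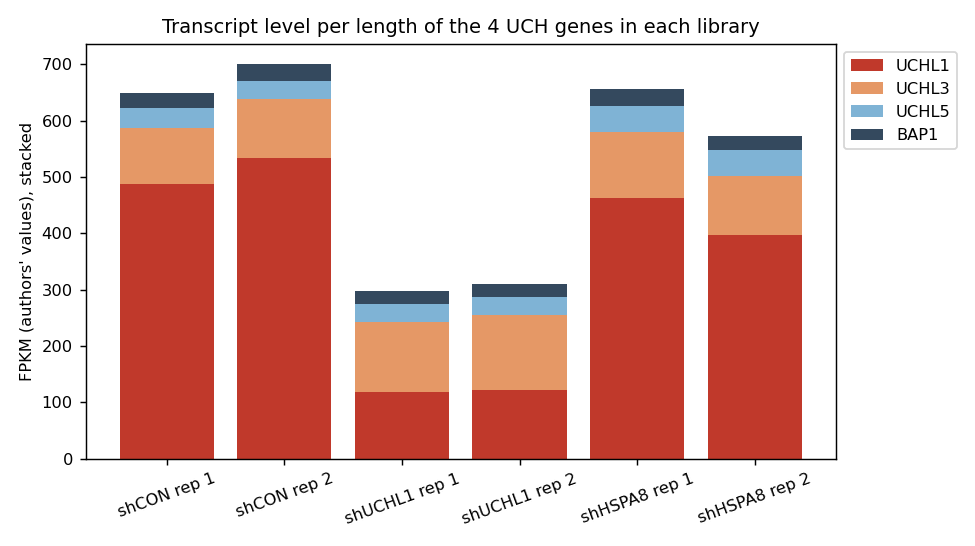
Stacked FPKM of the 4 UCH genes in each library, from 0. The UCHL1 segment shrinks from 488 and 534 FPKM in shCON to 118 and 122 in shUCHL1, while the other 3 together go from 161 and 167 to 178 and 187.

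RPS27A (gene ID 102187139), which encodes ubiquitin fused to a protein of the small ribosomal subunit, did not separate the lines. It stood at 592 and 706 CPM in shCON, 596 and 659 CPM in shUCHL1, and 640 and 547 CPM in shHSPA8. The libraries of all 3 lines overlapped, and the gap within shCON was wider than any gap between line means. Its log2 fold change was -0.05 in shUCHL1 (interval -0.33 to 0.23, edgeR adjusted p = 0.835) and -0.13 in shHSPA8 (interval -0.41 to 0.15, edgeR adjusted p = 0.537). The sign in shUCHL1 turned with the setting, being 0.03 when scaled by library size alone and 0.08 without shCON replicate 2. After the length correction, RPS27A was called lower in shHSPA8 (-0.27, edgeR adjusted p = 0.0225) and higher in shUCHL1 than in shHSPA8 (0.26, edgeR adjusted p = 0.0289).

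Counted over the 5 members, 0 were called higher and 2 lower in shUCHL1 against shCON, UCHL1 as the target and BAP1, where 8.54% of all genes tested were higher and 7.15% lower. At an unadjusted p under 0.05 edgeR had 1 member higher there, UCHL3, while DESeq2 and both limma fits called none higher after adjustment. In shHSPA8 against shCON 1 was higher, UCHL5, and 0 were lower by edgeR and DESeq2, where the shares of all genes were 8.66% and 6.02%; at an unadjusted p under 0.05 UCHL1 was lower there. Between shUCHL1 and shHSPA8 0 were higher by the reported edgeR test, DESeq2 or limma and 2 lower by edgeR, UCHL1 and UCHL5 (6.2% and 8.35% of all genes). With the length correction edgeR called UCHL3 higher in shUCHL1 than in shCON, and UCHL3 (0.28, edgeR adjusted p = 0.0373) and RPS27A higher in shUCHL1 than in shHSPA8. Separation of the libraries was common among all genes too: 4 of 5 members did not overlap between shUCHL1 and shCON (56.5% of all genes), 2 of 5 between shHSPA8 and shCON (51%; 26.1% higher), and 4 of 5 between the knockdown lines (65.7%; 33.9% higher). With 5 members these counts are read as values only. Counts at an unadjusted p under 0.05, here and in the lists below, have no share of all genes beside them. They do not show that a list moved more than genes at large.

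UBB, a polyubiquitin gene, overlapped between the lines as well. It stood at 1245 and 1372 CPM in shCON, 1336 and 1394 CPM in shUCHL1, and 1405 and 1286 CPM in shHSPA8. Its log2 fold change was 0.06 in shUCHL1 (interval -0.14 to 0.27, edgeR adjusted p = 0.699), 0.04 in shHSPA8 (interval -0.16 to 0.24, edgeR adjusted p = 0.807) and 0.02 between the knockdown lines (interval -0.18 to 0.23, edgeR adjusted p = 0.897). For the shUCHL1 comparison the 95% intervals, each for 1 gene, bounded a rise at 1.18-fold for RPS27A and 1.20-fold for UBB. Per length, RPS27A stood at 1798 and 2016 FPKM in shCON, 1802 and 2012 FPKM in shUCHL1, and 1946 and 1638 FPKM in shHSPA8, and ranked 27 of 12665 tested genes by mean FPKM. UBB stood at 1346 and 1465, 1499 and 1571, and 1516 and 1370 FPKM, and ranked 55. Its 2 shUCHL1 libraries lay above those of shCON on this scale, which carries no TMM factor. UBB consists of near-identical repeats, and RPS27A may have processed copies in the genome, so reads may have been divided between copies in a way that the sources used here do not record.

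As a ribosomal protein gene, RPS27A can be set beside the other small-subunit genes. Of 32 such genes, 0 were called in shUCHL1 against shCON by edgeR, where 15.7% of all genes were called. The median log2 fold change was -0.14, against 0.01 over all genes tested. Nearest to the threshold were RPS3 (-0.40, edgeR adjusted p = 0.0502) and RPS4X (-0.33, edgeR adjusted p = 0.0692). At an unadjusted p under 0.05 edgeR had 4 lower, and DESeq2 called 2 lower. RPS27A stood above 25 of them and below 7. In shHSPA8 against shCON 3 rose and 1 fell, where 8.66% of all genes were higher and 6.02% lower. The median was 0.04, against -0.00 over all genes, and RPS27A stood above 7 of the 32 and below 25. RPS2 rose by 0.57 (SE 0.10), RPS27 by 0.52 (SE 0.13) and RPS24 by 0.47 (SE 0.12), and RPS3 fell (-0.46, SE 0.11). Each was lost without at least 1 library, RPS2 only without shHSPA8 replicate 1 (edgeR adjusted p = 0.0544) and RPS27, RPS24 and RPS3 without 5 of the 6 (up to 0.145, 0.192 and 0.170).

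Next came genes that share the ubiquitin precursor or ubiquitin-like work of UCHL1 and UCHL3. The counts called in these lists are to be read against the 15.7% of all genes called in shUCHL1 and the 14.7% called in shHSPA8. Of 7 other proteases that cut ubiquitin or NEDD8 precursors or free chains, 0 were called in shUCHL1 by edgeR, DESeq2 or limma, nor by edgeR at an unadjusted p under 0.05 (median log2 fold change -0.16), and 1 fell in shHSPA8 (median -0.02). Nearest in shUCHL1 were USP14, a proteasome-bound deubiquitinase (-0.22, SE 0.10, edgeR adjusted p = 0.226), and USP5, which takes apart free ubiquitin chains (-0.19, SE 0.10, edgeR adjusted p = 0.292). USP14 was the one that fell in shHSPA8, from 155 and 132 CPM in shCON to 97.9 and 105 CPM (-0.50, SE 0.11, edgeR adjusted p = 0.0203). It thus moved against UCHL5, another deubiquitinase that binds the proteasome, in the same line. The USP14 call was lost without either shUCHL1 or either shHSPA8 library (edgeR adjusted p up to 0.123).

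Of 14 genes for ubiquitin-like proteins, 1 rose in shUCHL1 and 2 rose in shHSPA8, with none lower. SUMO3, a small ubiquitin-like modifier, stood at 20.5 and 22.3 CPM in shCON, 20.1 and 22.7 CPM in shUCHL1, and 37.1 and 36.0 CPM in shHSPA8. It rose 1.71-fold in shHSPA8 (log2 fold change 0.77, SE 0.11, edgeR adjusted p = 0.00476) and kept that call without any 1 library (at most 0.0321). ISG15, the interferon-induced ubiquitin-like protein, had 4 and 1 counts in shCON, 13 and 15 in shUCHL1 and 20 and 11 in shHSPA8. Its calls (2.39, SE 0.62, and 2.61, SE 0.60) rest on those few counts, were not made by DESeq2 and were lost without shCON replicate 2 and without either shUCHL1 library (edgeR adjusted p up to 0.182 in shUCHL1 and 0.149 in shHSPA8). In shHSPA8 the ISG15 call was also lost without shHSPA8 replicate 1. Unlike DESeq2, both limma fits called ISG15 higher in both lines. Between the knockdown lines GABARAPL1, an autophagosome protein of this fold, was higher in shUCHL1 (0.46, SE 0.10, edgeR adjusted p = 0.0232, and up to 0.253 without 1 library).

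Enzymes that activate ubiquitin and its relatives showed 1 of 9 lower in shUCHL1 and 2 of 9 lower in shHSPA8, with none higher. UBA3, the catalytic subunit of the NEDD8-activating enzyme, stood at 110 and 95.5 CPM in shCON, 68.1 and 70.3 CPM in shUCHL1, and 78.9 and 74.8 CPM in shHSPA8. It fell in both lines (-0.57, SE 0.10, edgeR adjusted p = 0.0113, and -0.42, SE 0.10, edgeR adjusted p = 0.0361), which share the shCON libraries. Its partner NAE1 fell in shHSPA8 (-0.44, SE 0.12, edgeR adjusted p = 0.0459). By DESeq2 and both limma fits UBA3 was lower in both lines as well, and NAE1 in shHSPA8. Without 1 library the log2 fold change of UBA3 ran from -0.67 to -0.49 in shUCHL1 and from -0.52 to -0.33 in shHSPA8, and that of NAE1 in shHSPA8 from -0.56 to -0.33. As to the edgeR calls, UBA3 in shUCHL1 was lost without either shUCHL1 library (edgeR adjusted p up to 0.126), and UBA3 and NAE1 in shHSPA8 without every library except shCON replicate 2 (up to 0.180 and 0.189). Among 32 tested ubiquitin-conjugating enzymes 1 rose and 1 fell in shUCHL1, where an unadjusted p under 0.05 gave 2 higher and 6 lower by edgeR. In shHSPA8 0 of them were called by edgeR, DESeq2 or limma, and an unadjusted p under 0.05 gave 1 higher and 1 lower. UBE2C, which serves the anaphase-promoting complex in mitosis, fell 1.41-fold (-0.50, SE 0.11), and UBE2H rose 1.39-fold (0.48, SE 0.09). Both were lost without either shUCHL1 library (edgeR adjusted p up to 0.194 and 0.163). In shHSPA8 the lowest p belonged to UBE2K (-0.26, SE 0.10, edgeR adjusted p = 0.126) and UBE2S (0.41, SE 0.16, edgeR adjusted p = 0.127).

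**Figure D4:**
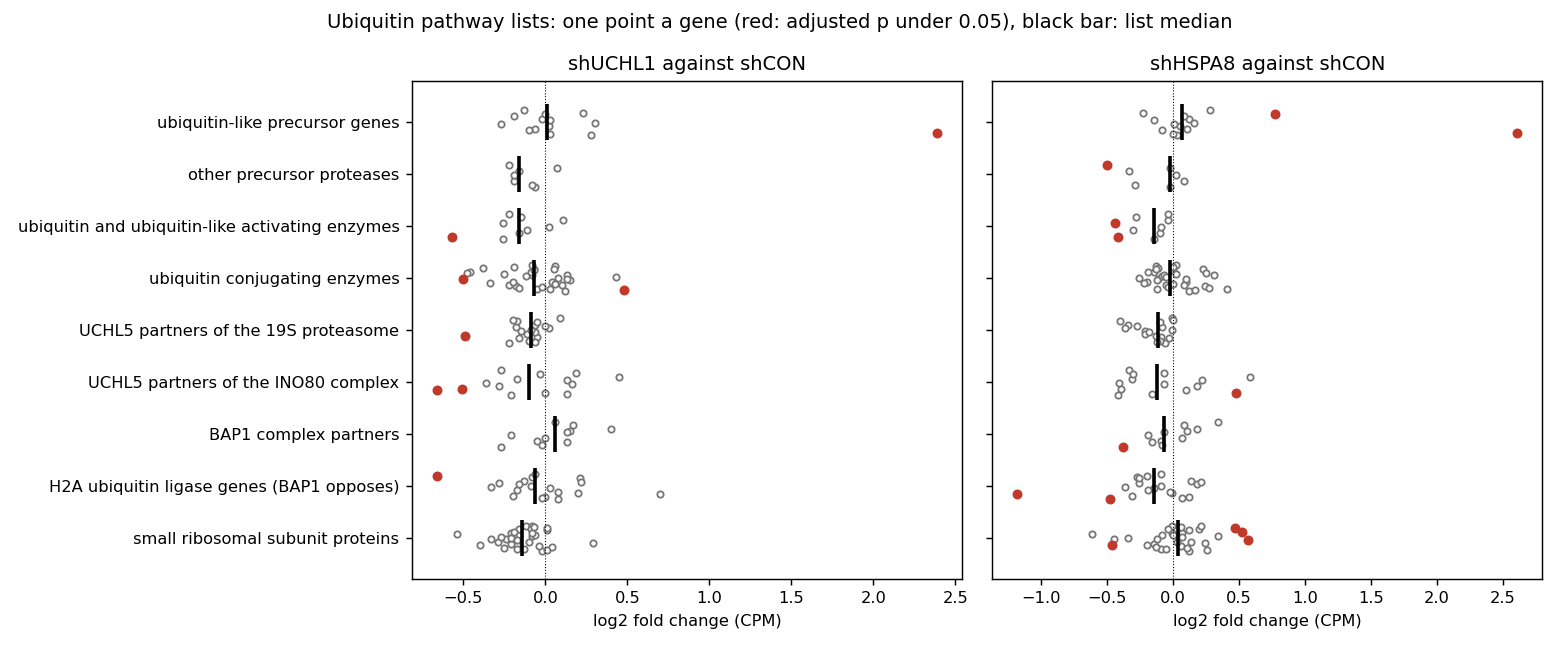
Log2 fold change (horizontal axis) of each tested gene in 9 lists of the ubiquitin pathway and its partners, for shUCHL1 and shHSPA8 against shCON, which share the control libraries. Red points passed an adjusted p of 0.05 and black bars are list medians, which lie between -0.16 and 0.07; the far right point of the ubiquitin-like list is ISG15, with 4 and 1 counts in shCON.

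The partners of UCHL5 were read in the same way, since that enzyme is found in the regulatory particle of the proteasome and in the INO80 complex. Of 18 proteasome regulatory-particle genes, 1 fell in shUCHL1 (median log2 fold change -0.09), and 0 were called in shHSPA8 by edgeR (median -0.11), where UCHL5 itself rose. At an unadjusted p under 0.05 edgeR had 7 of them lower in shHSPA8, and DESeq2 called 2 lower. The share of all genes at that unadjusted p was not taken, so the 7 is a value only. The lowest p in shHSPA8 belonged to PSMD12 (-0.36, SE 0.10, edgeR adjusted p = 0.0539) and PSMC3 (-0.40, SE 0.11, edgeR adjusted p = 0.057). PSMD6 fell in shUCHL1, from 136 and 139 to 96.0 and 99.6 CPM (-0.49, SE 0.08, edgeR adjusted p = 0.00928, and up to 0.138 without a shUCHL1 library). Of 14 genes of the INO80 complex, 2 fell in shUCHL1 and 1 rose in shHSPA8. RUVBL1, an ATPase of the complex, stood at 163 and 170 CPM in shCON, 102 and 109 CPM in shUCHL1, and 191 and 167 CPM in shHSPA8. It fell 1.58-fold in shUCHL1 (-0.66, SE 0.10, edgeR adjusted p = 0.00557, and up to 0.0841 without a shUCHL1 library). ACTR8, an actin-related subunit, fell as well (-0.51, SE 0.11, edgeR adjusted p = 0.0213, and up to 0.187 without a shUCHL1 library). INO80C rose in shHSPA8, from 8.99 and 9.30 to 13.3 and 12.3 CPM (0.48, SE 0.13, edgeR adjusted p = 0.0438), a call lost without any 1 of the 6 libraries. DESeq2 did not call INO80C there, while both limma fits did.

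Partners of BAP1 were not called with it in shUCHL1. Of 11 tested genes of its complex, 0 were called there by edgeR, DESeq2 or limma (median log2 fold change 0.06), 2 were lower at an unadjusted p under 0.05, and ASXL1, the cofactor that activates BAP1, came nearest (-0.27, SE 0.08, edgeR adjusted p = 0.0602). In shHSPA8 ASXL1 fell, from 199 and 199 CPM to 154 and 151 CPM (-0.38, SE 0.08, edgeR adjusted p = 0.0196, and up to 0.126 without 1 library). None of the other partners of BAP1 was called in shHSPA8. Among 19 genes of the ligase complexes that put ubiquitin on histone H2A, the mark BAP1 removes, 1 fell in shUCHL1 and 2 fell in shHSPA8. RNF2, a catalytic subunit, fell in shUCHL1 (-0.66, SE 0.17, edgeR adjusted p = 0.0457, and up to 0.253 without 1 library). PCGF5, another subunit, stood at 32.5 and 21.9 CPM in shCON, 46.5 and 41.8 CPM in shUCHL1, and 10.7 and 13.3 CPM in shHSPA8, so that all 3 lines were apart. In shUCHL1 against shCON it was higher by 0.70 (SE 0.19, edgeR adjusted p = 0.0512, and from 0.0067 to 0.272 without 1 library), a difference that DESeq2 and limma voom called. It fell 2.26-fold in shHSPA8 (-1.18, SE 0.21, edgeR adjusted p = 0.0104, and 0.0620 without shHSPA8 replicate 1), and between the knockdown lines it was higher in shUCHL1 by 3.68-fold (1.88, SE 0.21, edgeR adjusted p = 0.00245, and at most 0.0242 without any 1 library). BMI1, a core subunit, also fell in shHSPA8 (-0.48, SE 0.09, edgeR adjusted p = 0.0163, and up to 0.113 without 1 library).

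Set directly against each other, the knockdown lines differed in some of the same lists. SUMO3 was lower in shUCHL1 than in shHSPA8 (-0.77, SE 0.11, edgeR adjusted p = 0.00638, and up to 0.101 without a shUCHL1 library), as was RUVBL1 (-0.76, SE 0.10, edgeR adjusted p = 0.00414, and up to 0.0745). Of the regulatory particle, PSMD6 was lower (-0.36) and PSMD12 higher (0.39) in shUCHL1. Of the conjugating enzymes, UBE2T, which acts in DNA crosslink repair, was lower (-0.73), as was UBE2C (-0.39), and INO80C of the INO80 complex was lower too (-0.48). BMI1 (0.56) and PCGF6 (0.47) of the H2A ligase complexes were higher in shUCHL1, and RPS2 (-0.74), RPS27 (-0.70) and RPS24 (-0.46) were lower among the small-subunit genes. Apart from PCGF5, each of these calls was lost without at least 1 library of the knockdown lines. Between the knockdown lines edgeR called 14.6% of all genes, against which the counts in each list are to be read. Of the precursor proteases 0 of 7, of the activating enzymes 0 of 9 and of the BAP1 partners 0 of 11 were called there by edgeR, DESeq2 or limma voom. At an unadjusted p under 0.05 edgeR had 2, 0 and 1 higher, the proteases being USP14 (0.29, edgeR adjusted p = 0.111) and USP7 (0.21, edgeR adjusted p = 0.12). Limma on log2 FPKM called USP7 of the proteases and YY1 of the BAP1 partners higher in shUCHL1 than in shHSPA8.

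Genes whose levels ran most like those of each member were sought by Pearson's r of log2(CPM + 0.5) over the 6 libraries, among 9719 tested genes with a symbol and at least 5 CPM. With 3 lines and 6 points such values are high for many genes and are a description only. For UCHL1 they included MAP4, a microtubule-binding protein (r = 0.999), GEMIN6 of the SMN complex (0.998) and NKAIN1 (0.997). MAP4 stood at 568 and 567 CPM in shCON, 401 and 404 CPM in shUCHL1, and 558 and 536 CPM in shHSPA8. For UCHL3 the nearest were TFE3, CANT1 and WDR91 (0.997, 0.991 and 0.991), for UCHL5 SGCE, DNAJC21 and ERG (0.999, 0.994 and 0.994), for BAP1 RPL7, RBFA and DCTN1 (0.996, 0.996 and 0.995), and for RPS27A SH3BP1, YIPF3 and SLC25A11 (0.996, 0.990 and 0.990). ERG, an endothelial transcription factor, was called in shHSPA8 together with UCHL5 (0.59, edgeR adjusted p = 0.00758), and none of the other 11 listed for these 4 members was called against shCON by edgeR.

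Position was looked at through the adjacent protein-coding genes in the RefSeq annotation of assembly ARS1.2, used for neighbourhood only. Beside UCHL1, APBB2 did not pass the test in shUCHL1 (log2 fold change -0.05, SE 0.19, edgeR adjusted p = 0.888). LIMCH1, an activator of non-muscle myosin, rose in shUCHL1 (2.72, SE 0.23, edgeR adjusted p = 0.000629) and in shHSPA8 (2.84, SE 0.23, edgeR adjusted p = 0.000358). Its mean over all 6 libraries, those of the lines where it rose included, was 4.32 CPM. Beside UCHL5, RGS2, a regulator of G protein signalling, rose in shHSPA8 (2.17, SE 0.11, edgeR adjusted p = 7.48e-05), and TROVE2 on the other side did not pass (0.79, SE 0.25, edgeR adjusted p = 0.0853), though DESeq2 called it. The neighbours of UCHL3 (LMO7 and COMMD6), of RPS27A (CLHC1 and MTIF2) and the tested neighbour of BAP1 (PHF7) were not called in any comparison by edgeR.

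The authors' deposited table holds its own log2 ratios and p-values, and neither the test behind them nor any adjustment is stated there. For shUCHL1 against shCON the authors' deposited table gives -2.18 for UCHL1, 0.24 for UCHL3 (p = 0.111), -0.17 for UCHL5 (p = 0.276), -0.42 for BAP1 (p = 0.00479) and -0.07 for RPS27A (p = 0.614). For shHSPA8 against shCON the authors' deposited table gives 0.48 for UCHL5 (p = 0.00569) and -0.26 for UCHL1 (p = 0.111).

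The stability of each member was read over 15 other settings. UCHL1 in shUCHL1 was called in 15 of 15, UCHL5 in shHSPA8 in 9, BAP1 in shUCHL1 in 4, UCHL3 in shUCHL1 in 1 and RPS27A in shUCHL1 in 0. UCHL3 lay above shCON in shUCHL1 in all 15, whereas RPS27A kept its sign in 11.

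**Figure D5:**
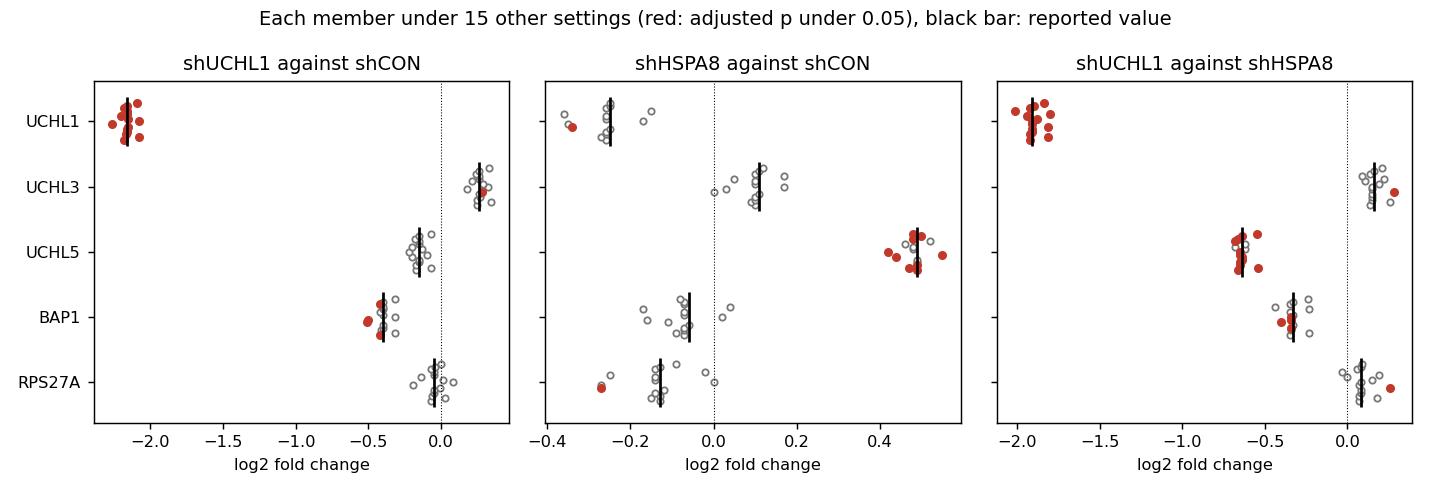
Log2 fold change (horizontal axis, with its own range in each panel) of each member under 15 other settings of scaling, filter, tool, block, length correction and left-out library. Red points passed an adjusted p of 0.05 and black bars are the reported values; UCHL1 in shUCHL1 is red in 15 of 15, UCHL5 in shHSPA8 in 9 of 15 and BAP1 in shUCHL1 in 4 of 15.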

How the data were processed

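Messenger RNA libraries of 6 samples were grouped by line. The submitters' processing notes name Trimmomatic 0.36; for the aligner, counter, build and strand the sources used here give nothing. The authors deposited 1 table of 33229 entries, 16599 with values and 16630 blank, which were not used. Per the file headers, the authors give a read count and an FPKM value per library; between 1014 and 1117 genes per library have fractional counts, so the unit is expected (estimated) counts, which were rounded. The log2 ratios and p-values between lines, and mean expected counts per line, are the authors', per the file headers.

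Counts were filtered with filterByExpr, scaled by TMM and tested with edgeR 4.0.16 (glmQLFit, glmQLFTest; R 4.3.3), with line as the only term and all 6 libraries in the fit, and Benjamini-Hochberg adjustment over 12665 genes. SE is the log2 fold change over the square root of F, and the 95% intervals, from the fit's degrees of freedom, are not adjusted. Alternatives were RLE or library-size scaling, no filter, DESeq2 1.42.0, limma 3.58.1 with voom or on log2(FPKM + 0.1), 2 lines only, a replicate block, a loess length offset, and leaving out each library. The tests were checked on simulated data. The planted changes were larger than those of UCHL3, UCHL5 and BAP1 against shCON. That check therefore does not tell whether changes of their size can be detected. Members, lists and neighbours were chosen with earlier results of these data known. Named genes were the members, HSPA8, up to 4 called genes per list and comparison with the largest change (otherwise the 2 with the lowest p), and the genes most alike. Some genes that this rule names are not reported here. RefSeq (ARS1.2) matched all 16599 gene IDs and served for names and neighbours only.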

Additional observations from a re-analysis of the deposited data

How the results depend on the processing

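UCHL1 in shUCHL1 kept its call in every setting, from -2.26 to -2.08 without 1 library, and against shHSPA8 from -2.01 to -1.80. The cause of each change below was not tested. BAP1 in shUCHL1 was no longer called with library size only (-0.32), no low-count filter (-0.41), 2 lines only (-0.40), the replicate block (-0.40), voom (-0.40) or FPKM (-0.32), and ran from -0.50 to -0.32 without 1 library. Against shHSPA8 BAP1 became called with 2 lines only (-0.34), with the length offset (-0.40) and without either shCON library (-0.34). Without 1 library it ran from -0.44 to -0.23 there. UCHL5 in shHSPA8 lost its call with 2 lines only (0.49) and the replicate block (0.49), and ran from 0.42 to 0.55 without 1 library; against shHSPA8 it ran from -0.68 to -0.62. The length offset made calls of UCHL3 in shUCHL1 (0.28) and against shHSPA8 (0.28), of UCHL1 in shHSPA8 (-0.34), and of RPS27A in shHSPA8 (-0.27) and between the knockdown lines (0.26). Signs turned for RPS27A in shUCHL1 with library size only (0.03) and FPKM (0.00); without 1 library it ran from -0.19 to 0.08 there, from -0.27 to 0.00 in shHSPA8 and from -0.03 to 0.19 between the knockdown lines, and BAP1 in shHSPA8 from -0.17 to 0.04. Library size alone moved the median of all genes between the knockdown lines from 0.02 to 0.12.

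Genes called in shUCHL1 numbered 1987, and 1230 with the replicate block, 3063 with the length offset and 528 to 2615 without 1 library. In shHSPA8 they numbered 1859, and 1104 with 2 lines only, 1131 with the block, 3011 with the length offset and 920 to 2416 without 1 library. Between the knockdown lines they numbered 1843, and 3116 with 2 lines only, 923 with the block, 2883 with the length offset and 257 to 3083 without 1 library, where a lone library is assumed to vary like the others. The summed FPKM of UCHL3, UCHL5 and BAP1 was 18.8 higher in shUCHL1, 10.6 after TMM rescaling and 14.5 to 23.2 without 1 library; in shHSPA8 it was 20.3 higher, and 11.6 to 29.0 without 1 library. Same-numbered libraries deviated together with r = 0.216 for shCON and shUCHL1, -0.503 for shCON and shHSPA8 and -0.203 for the knockdown lines across genes, so the numbers were not taken to pair the libraries, and the block ended no other member's call. With 2 libraries per line, small differences are mostly not detectable.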
